A study of Rattus norvegicus with 120 samples.

Results

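Kidneys of rats given cyclosporine A (CsA) at 25 mg/kg for 28 days were compared directly with kidneys of rats given rapamycin (Rapa) at 10 mg/kg for the same time. The arrays were taken by their treatment labels alone: 4 CsA arrays and 6 Rapa arrays, 10 of the 120 arrays of the series, with 1 rat per array. All animals were male Sprague-Dawley rats, 5 to 7 weeks old before treatment, dosed intraperitoneally once a day and killed 24 hours after the last dose. Rats given olive oil for 28 days (vehicle, 5 rats) and rats given tacrolimus (FK506) at 6 mg/kg for 28 days (5 rats) are shown beside them, and 4 CsA and 4 Rapa rats at each of day 7 and day 14 serve as the earlier comparison at the same doses. The title of the study names gene markers for detecting calcineurin inhibitor damage to the kidney early. The 25 and 10 mg/kg are the higher of 2 doses of each drug and are not matched in weight or effect, so every difference below is between these 2 regimens. Each array holds RNA from the parts of both kidneys that were not kept for histology, so cortex and medulla were not separated.

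CsA binds cyclophilins, and the complex inhibits calcineurin, the calcium-dependent phosphatase that moves NFAT transcription factors into the nucleus. FK506 and Rapa are macrolides that bind the same immunophilin, FKBP12. The FK506 complex also inhibits calcineurin, whereas the Rapa complex inhibits mTOR complex 1, the kinase that couples growth factors and amino acids to protein synthesis. Both classes prevent graft rejection. In the kidney, calcineurin inhibitors are known for constriction of the afferent arteriole, tubular injury, loss of magnesium and calcium and interstitial fibrosis. The distal convoluted tubule reabsorbs sodium chloride through NCC (Slc12a3) and calcium through a route that uses calbindin-D28k (Calb1) inside the cell.

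One CsA array, replicate 3, stood apart from the rest. It held all 5273 zeros of the deposited table, which were 17.0% of its values, and its median intensity was 52.0 against 69.9 to 76.4 on the other 9 arrays. Its mean correlation with the arrays of its own group was 0.87, while the other arrays of the CsA, Rapa and vehicle groups lay at 0.94 or above. Each result is therefore given with and without it, in that order where 2 values stand together, and a gene is called only if its adjusted p (limma, Benjamini-Hochberg over all genes tested) was under 0.05 in the same direction in both fits. Levels are log2(intensity + 16), quantile normalized, and a difference is the CsA mean minus the Rapa mean, so 1 is a doubling where the level is well above the offset and a smaller apparent change where it is dim. Kidney segment markers were high in both groups: Lrp2 of the proximal tubule lay at 12.87 to 13.22 with CsA and 13.03 to 13.31 with Rapa, Umod of the thick ascending limb at 13.33 to 13.63 and 13.63 to 13.98, and Aqp2 of the collecting duct at 10.86 to 12.06 and 11.12 to 12.28. The adrenal and muscle markers Cyp11a1, Cyp11b1, Star, Myh4, Ckm and Acta1 had a highest value of 6.55 (Cyp11a1, with CsA) on the 10 arrays, while the liver gene Alb reached 10.02 in a Rapa rat against at most 6.26 with CsA. Of 7 array measures (Gapdh 3-prime to 5-prime ratio, hybridization controls and the summed intensity of liver, adipose, muscle, adrenal and erythroid genes), none differed between the 4 and 6 arrays after Benjamini-Hochberg adjustment in an exact two-sided permutation test. The lowest raw p in that test was 0.019, for the summed intensity of the 2 muscle genes tested (adjusted p = 0.13). The smallest p that 4 against 6 allows is 0.0095. A measure that differed alone could therefore not have passed 0.05 after adjustment over the 7. The muscle sum was mostly Myh1 (12.37 ± 0.25 with CsA, SD, n = 4, and 12.82 ± 0.12 with Rapa, SD, n = 6). By limma 1 of the 2 muscle genes was called lower with CsA in both fits. Other Myh1 probe sets differed by -0.58, -0.59 and -0.64, called with all 10 arrays, and by -0.21, not called.

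Of 10662 genes tested, 703 were called higher with CsA than with Rapa and 512 lower, which is 6.59% and 4.80% of the genes. More than 2-fold differences in both fits were found for 83 of the higher and 22 of the lower genes. Fewer cells of a type and less RNA per cell cannot be told apart in these tissue samples. Among called genes whose 4 and 6 levels did not overlap, ranked by the smaller of both differences, the 12 largest rises were Havcr1, Klk1c4, Fcgr3a, Adamts1, Mmp9, Naaa, Clu, Tnfrsf12a, Gpnmb, Cldn4, Clec4a3 and Adgre1. By the same rank the 12 largest falls were Calb1, Slc7a12, Eri2, Slc12a3, Apoh, Slc8a1, Sfrp2, S100g, Tex14, Cnpy1, Fmo2 and Cdo1. With all 10 arrays 1107 genes were called higher and 1009 lower (19.8% of the genes), and without the array with zeros 758 and 589 (12.6%). Leaving out the array ended 497 calls of lower and 404 of higher genes. Of the 1009 lower genes, 396 were listed at 0 in it, against 23 of the 512 called in both fits and 0 of the 1107 higher genes. Hnf4a, a transcription factor of the proximal tubule, was among them, and its difference was -2.41 with all 10 arrays and -0.38 without the array. The levels of the 4 and 6 arrays did not overlap for 903 genes (8.47%), of which 653 (6.12%) were also called.

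**Figure D1:**
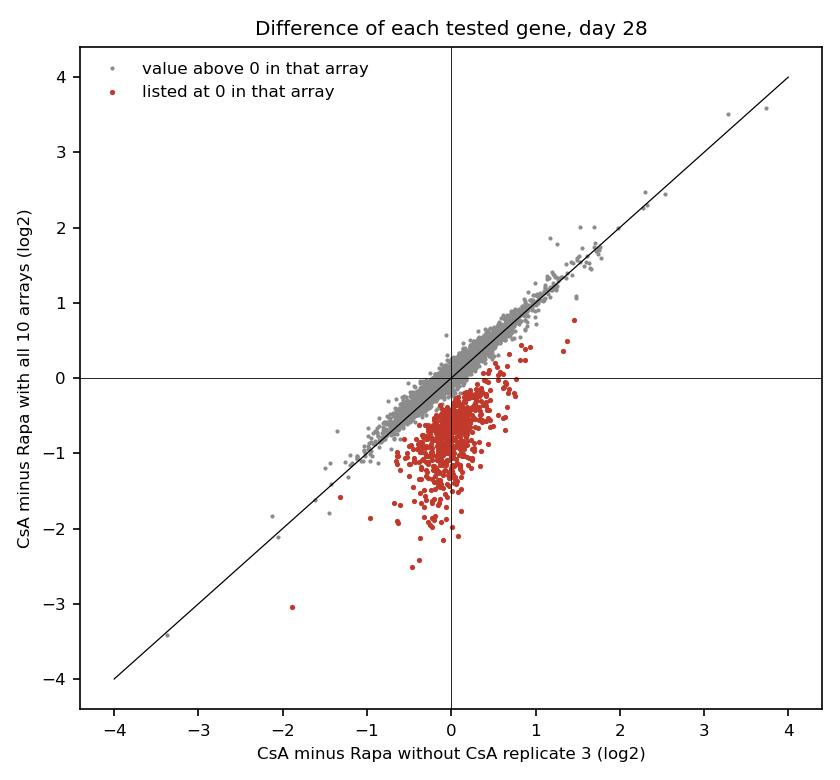
Each point is 1 of 10662 tested genes: the CsA minus Rapa difference at day 28 without CsA replicate 3 (horizontal, log2) against the difference with all 10 arrays (vertical, log2), with the line of equality. The 623 genes listed at 0 in that array (red) lie below the line, while most others lie close to it.

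The vehicle rats place each difference. For 366 of the 703 higher genes the CsA mean of the other 3 rats lay more than 2 times as far from the vehicle mean as the Rapa mean did. For 155 it was the Rapa mean that lay more than 2 times as far, and 182 met neither condition. Among the 512 lower genes these counts were 230, 140 and 142. Both distances use the same 5 vehicle rats and are a description. Against vehicle 15.8% of all genes were called with CsA, without the array with zeros, and 15.7% with Rapa.

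Genes of tubular injury were, on balance, higher with CsA than with Rapa. Of 34 measured genes of tubular injury and repair, 17 were called higher and 1 lower, with a median difference of 0.75 with all 10 arrays and 0.71 without the array with zeros, where the median over all tested genes was 0.0154 and 0.00349. Among all tested genes 6.59% were called higher and 4.80% lower. Havcr1 encodes KIM-1, a receptor that injured proximal tubule cells display. Its level was 9.87, 9.25 and 11.56, with 11.13 in the array with zeros, against 6.04 to 8.29 with a median of 6.71 in the 6 Rapa rats and 6.03, 5.22, 5.93, 6.15 and 6.84 in the vehicle rats. No Rapa rat reached the lowest CsA rat, and the highest Rapa rat lay above all vehicle rats. The difference was 3.51 ± 0.50 (SE) with all 10 arrays and 3.28 ± 0.55 without the array with zeros (limma adjusted p = 8.6e-08 and 5.7e-06), or 9.75-fold without that array. Clu, the secreted chaperone clusterin, was at 12.43, 12.36 and 12.48, with 12.38 in the array with zeros, and at 10.16 to 10.89 with a median of 10.77 with Rapa. The 4 CsA rats lay close together and all above the Rapa rats, with a difference of 1.73 ± 0.27 (SE) with all 10 arrays and 1.75 ± 0.30 without the array with zeros (limma adjusted p = 1.2e-06 and 1.1e-05). Adamts1, a secreted metalloprotease, was at 10.32, 10.73 and 10.66, with 10.50 in the array with zeros, against 7.89 to 8.94 with a median of 8.24 with Rapa and 8.23 ± 0.42 (SD, n = 5) with vehicle. Its difference of 2.26 and 2.28 set the CsA rats apart from both other groups.

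Other injury genes were called too. Tnfrsf12a, the receptor of the cytokine TWEAK, differed by 1.80 and 1.71. Cldn4, a tight-junction protein, differed by 1.74 and 1.69, and Spp1, osteopontin, by 1.36 and 1.43 (adjusted p = 0.00040 and 0.0011). Timp1, an inhibitor of matrix proteases, differed by 1.19 and 1.11, and Cd44, the hyaluronan receptor, by 1.19 and 1.22. The cytokine midkine (Mdk) differed by 1.54 and 1.43. Lcn2, the iron-carrier-binding protein NGAL, was at 8.66, 9.12 and 9.60, with 9.41 in the array with zeros, and at 7.02 to 9.32 with a median of 7.42 with Rapa. The groups overlapped, since Rapa rat 6 was at 9.32, and its difference was 1.57 ± 0.47 (SE) with all 10 arrays and 1.49 ± 0.52 without the array with zeros (limma adjusted p = 0.011 and 0.044). Tff3, a trefoil peptide, was the 1 member called lower (-0.66 and -0.88). Vim (0.36 and 0.45, adjusted p = 0.11 and 0.079) and the cell-cycle inhibitor Cdkn1a (0.14 and 0.14, adjusted p = 0.79 and 0.84) did not pass. Against vehicle, Spp1 was 2.27 higher with CsA (without the array with zeros) and 0.84 higher with Rapa, and Clu 2.29 and 0.55, so the Rapa means lay between the vehicle and CsA means for both genes. Lcn2 was not called in a fit to the 10 arrays alone (adjusted p = 0.061).

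**Figure D2:**
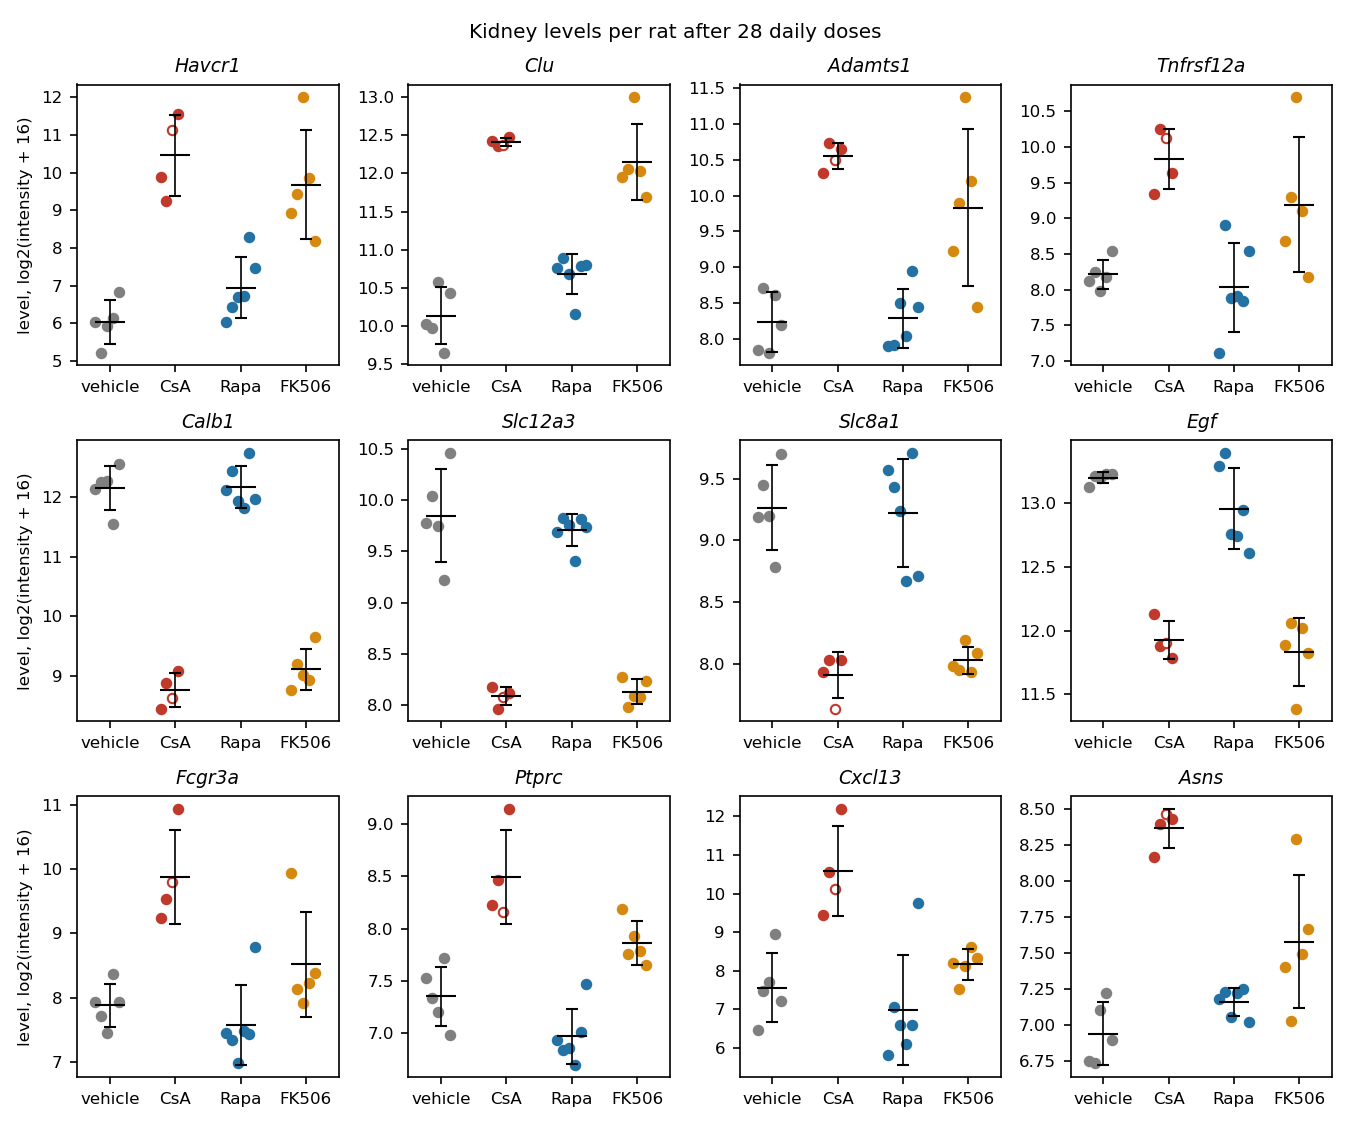
Level of 12 genes in each rat after 28 daily doses, as log2(intensity + 16): vehicle (5 rats), CsA 25 mg/kg (4 rats, the open circle being the array with zeros), Rapa 10 mg/kg (6 rats) and FK506 6 mg/kg (5 rats). Horizontal bars are means and error bars SD. Havcr1, Clu, Adamts1 and Tnfrsf12a are high with CsA, Calb1, Slc12a3, Slc8a1 and Egf are low, and in Fcgr3a and Cxcl13 Rapa replicate 6 lies above the other 5 Rapa rats.

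Many genes of the distal convoluted tubule were lower with CsA. Of 22 measured members, 10 were called lower and 0 higher, with a median of -0.27 with all 10 arrays and -0.25 without the array with zeros. Among all tested genes 4.80% were called lower and 6.59% higher, at medians of 0.0154 and 0.00349. Calb1, which buffers and carries calcium across the cell, was at 8.45, 8.88 and 9.08, with 8.63 in the array with zeros, against 11.82 to 12.74 with a median of 12.04 with Rapa and 12.14, 12.25, 12.26, 11.55 and 12.55 in the vehicle rats. The Rapa and vehicle rats overlapped, and all CsA rats lay below both groups. The difference was -3.41 ± 0.22 (SE) with all 10 arrays and -3.37 ± 0.25 without the array with zeros (limma adjusted p = 3.6e-23 and 4.8e-20), or 10.3-fold lower without that array, and Calb1 led the falls. Slc12a3, the thiazide-sensitive sodium chloride cotransporter, was at 8.18, 7.96 and 8.12, with 8.08 in the array with zeros, and at 9.40 to 9.83 with a median of 9.75 with Rapa, a difference of -1.62 ± 0.18 (SE) with all 10 arrays and -1.62 ± 0.19 without the array with zeros (limma adjusted p = 2.2e-11 and 1.5e-09). Slc8a1, the sodium-calcium exchanger that moves calcium out of the cell, differed by -1.31 and -1.22, and no CsA rat reached the lowest Rapa rat (8.04 against 8.67). Egf, the growth factor made by distal segments, differed by -1.03 and -1.02. Its level was 11.93 ± 0.15 (SD, n = 4) with CsA, 12.96 ± 0.32 (SD, n = 6) with Rapa and 13.20 ± 0.04 (SD, n = 5) with vehicle.

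The other called members were Cnnm2, a magnesium transport protein (-0.77 and -0.87), the kinases Wnk1 and Stk39, which activate the cotransporter (-1.01 and -0.96 for Wnk1, -0.48 and -0.48 for Stk39), the phosphatase inhibitor Ppp1r1a (-0.69 and -0.63), Cul3 of the ubiquitin ligase that degrades WNK kinases (-0.14 and -0.16) and S100g. S100g, calbindin-D9k, differed by -1.13 and -1.18 with the Rapa rats away from vehicle: its mean was 8.48 ± 0.39 (SD, n = 6) with Rapa, 7.34 ± 0.33 (SD, n = 4) with CsA and 7.54 ± 0.20 (SD, n = 5) with vehicle. Trpv5, the apical calcium channel, did not pass (0.05 and 0.05, adjusted p = 0.89 and 0.91), and its other probe set, which did not pass either, had the opposite sign.

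In the segments next to the distal convoluted tubule 3 genes of each list were called, where 11.4% of all tested genes were. In the thick ascending limb 2 of 15 members were called lower and 1 higher: Umod, uromodulin (-0.29 and -0.33), the potassium channel Kcnj1 (-0.59 and -0.52) and, upward, the prostaglandin receptor Ptger3 (0.85 and 0.75). Slc12a1, the furosemide-sensitive cotransporter of that segment, did not pass (-0.10 and 0.09, adjusted p = 0.68 and 0.77). In principal cells of the collecting duct 3 of 17 members were called lower, and these were the alpha, beta and gamma subunits of the epithelial sodium channel, Scnn1a (-0.70 and -0.75), Scnn1b (-0.47 and -0.47) and Scnn1g (-0.49 and -0.51). The Rapa and CsA means of Scnn1a lay on opposite sides of vehicle, at 8.47 ± 0.38 (SD, n = 6) and 7.77 ± 0.22 (SD, n = 4) against 8.08 ± 0.19 (SD, n = 5). Other probe sets of Scnn1a (-0.26), Scnn1g (-0.31) and Ptger3 (0.32) had the same sign as those used and did not pass. Aqp2, the vasopressin-regulated water channel, had differences of -0.20 and 0.05 (adjusted p = 0.64 and 0.94). Medians were -0.16 and -0.11 in the thick ascending limb, -0.19 and -0.14 in principal cells and 0.04 and 0.08 in intercalated cells. Among 13 intercalated cell genes, the receptor Kit (1.04 and 1.10) and the anion exchanger pendrin, Slc26a4 (0.67 and 0.67), were higher, and the ammonia channel Rhcg (-0.65 and -0.73) was lower. A fit to the 10 arrays alone did not call Scnn1a, Scnn1b, Scnn1g and Umod (adjusted p = 0.051 to 0.11).

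Proximal tubule genes went both ways, where 6.59% of all tested genes were called higher and 4.80% lower. Of 36 transport genes 4 were called higher and 6 lower, with a median of 0.07 with all 10 arrays and -0.02 without the array with zeros. Slco1a1, an organic anion transporter that is higher in male kidneys, was at 11.14, 9.35 and 7.39, with 10.44 in the array with zeros, against 10.85 to 11.65 with a median of 11.51 with Rapa. Its difference was -1.84 ± 0.30 (SE) with all 10 arrays and -2.12 ± 0.32 without the array with zeros (limma adjusted p = 2.5e-06 and 7.7e-07). The groups overlapped, since CsA replicate 1 lay above Rapa replicate 6 (10.85). Slc22a2, the organic cation transporter OCT2, differed by -0.91 and -1.04. In the other direction, the facilitative glucose transporter Slc2a2 differed by 1.04 and 0.97 and the sodium-glucose cotransporter Slc5a1 by 0.67 and 0.70. Of 26 metabolic genes 4 were higher and 3 lower, with a median of -0.04 and -0.04. Cyp2e1, a cytochrome P450 that oxidises ethanol, differed by 1.07 and 1.17 and Gldc of the glycine cleavage system by 1.00 and 1.03, and both were lower than vehicle with Rapa (-0.69 and -1.31). Slc7a12, a member of an amino acid transporter family, had the second largest fall. It was at 10.26, 10.86 and 10.05, with 10.17 in the array with zeros, and at 11.80 to 12.99 with a median of 12.54 with Rapa, a difference of -2.11 ± 0.28 (SE) with all 10 arrays and -2.06 ± 0.30 without the array with zeros (limma adjusted p = 7.2e-09 and 3.7e-07). Cyp2c11, the male-specific cytochrome P450, was low with both drugs: 6.23 ± 1.40 (SD, n = 4) with CsA and 6.75 ± 0.79 (SD, n = 6) with Rapa against 11.01 ± 0.45 (SD, n = 5) with vehicle, and the drugs' difference of -0.52 and -0.61 did not pass (adjusted p = 0.71 and 0.71). With the 10 arrays fitted alone, Slc22a2 and Slco1a1 were not called (adjusted p = 0.069 to 0.10). The adjusted p rose without CsA replicate 2 to 0.052 for Slc5a1.

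Endothelial and podocyte genes that passed were lower with CsA, where 4.80% of all tested genes were called lower. Of 20 endothelial genes 5 were called lower and none higher, with a median of -0.39 with all 10 arrays and -0.32 without the array with zeros. Kdr, the main VEGF receptor, differed by -0.68 and -0.69, Emcn, the mucin endomucin, by -0.64 and -0.63, and Aqp7, a glycerol channel, by -0.41 and -0.55. These kidney arrays do not show which cells the RNA of a list member came from, Aqp7 included. Tek, the angiopoietin receptor, was listed at 0 in the array with zeros, and its difference was -1.92 with all 10 arrays against -0.63 without. Among 17 podocyte genes 4 were called lower, with a median of -0.14 and -0.16: the cyclin-dependent kinase inhibitor Cdkn1c (-0.73 and -0.70), the sialomucin Podxl (-0.55 and -0.55), the collagen chain Col4a4 (-0.50 and -0.63) and the peptidase Mme (-0.49 and -0.45), which the proximal tubule also makes. A second probe set of Podxl had the opposite sign and did not pass. Of 14 genes of the renin-angiotensin and vasoactive list 3 were lower and 1, Ptgds, higher, with a median of -0.02 and -0.07. Ptgs2, the inducible cyclooxygenase, was at 6.21, 5.55 and 5.83, with 6.17 in the array with zeros, and at 6.20 to 7.61 with a median of 7.18 with Rapa. The groups met at the lowest Rapa level, and the difference was -1.04 and -1.11 (adjusted p = 0.014 and 0.025). Agt, angiotensinogen, differed by -0.72 and -0.88, and Enpep, the aminopeptidase that converts angiotensin II, by -0.35 and -0.41. Another probe set of Enpep (-0.14) did not pass. Agt, Aqp7, Col4a4, Enpep, Mme, Podxl, Ptgs2 and Tek were not called in a fit to the 10 arrays alone (adjusted p = 0.070 to 0.26). The adjusted p rose without CsA replicate 2 to 0.070 for Agt and 0.063 for Ptgs2; without CsA replicate 4 to 0.18 for Agt, 0.34 for Col4a4 and 0.068 for Mme; without Rapa replicate 4 to 0.051 for Col4a4; without Rapa replicate 6 to 0.072 for Col4a4.

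Macrophage and myeloid genes were higher with CsA than with Rapa. Of 25 members 19 were called higher and none lower, with a median of 0.98 with all 10 arrays and 0.98 without the array with zeros. Among all tested genes 6.59% were called higher and 4.80% lower, at medians of 0.0154 and 0.00349. Fcgr3a, an activating IgG Fc receptor, was at 9.24, 9.54 and 10.93, with 9.80 in the array with zeros, against 6.98 to 8.79 with a median of 7.44 with Rapa. Rapa replicate 6, at 8.79, stood above the other Rapa rats but below all CsA rats. The difference was 2.30 ± 0.29 (SE) with all 10 arrays and 2.32 ± 0.32 without the array with zeros (limma adjusted p = 4.7e-09 and 1.1e-07). Adgre1, the macrophage marker F4/80, differed by 1.65 and 1.74, Ptprc, the pan-leukocyte marker CD45, by 1.53 and 1.64, and Pilra, an inhibitory myeloid receptor, by 1.54 and 1.60. The 3 chains of complement C1q, made by tissue macrophages, differed together: C1qa by 1.54 and 1.52, C1qb by 1.16 and 1.12 and C1qc by 1.29 and 1.27. Cd68 differed by 1.13 and 1.10 and Csf1r, the receptor for the macrophage growth factor, by 0.90 and 1.03. The summed intensity of the 25 genes ran from 14350 to 28237 with CsA, from 8906 to 15197 with Rapa and from 9854 to 12387 with vehicle. Against vehicle the median of the list was 0.83 with CsA, without the array with zeros, and -0.20 with Rapa. Without CsA replicate 3 the CsA sums ran from 14350 to 28237. The part of these cells in the rises of other genes was not tested.

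Among 16 chemokines 3 were called higher, with a median of 0.51 and 0.51, where 6.59% of all tested genes were called higher. Cxcl13, which attracts B cells, had the largest difference of these. It was at 9.44, 10.56 and 12.19, with 10.12 in the array with zeros, and at 5.82 to 9.76 with a median of 6.60 with Rapa, with Rapa replicate 6 at 9.76 and inside the CsA range. The difference was 3.58 ± 0.60 (SE) with all 10 arrays and 3.73 ± 0.66 without the array with zeros (limma adjusted p = 3.9e-06 and 1.7e-05). Cxcl16 (0.64 and 0.65) and Cxcl12 (0.43 and 0.49) were the others. Of 32 interferon-response genes 6 were called higher and none lower, with a median of 0.38 with all 10 arrays and 0.38 without the array with zeros. They included the immunoproteasome subunits Psmb8 (0.95 and 0.84), Psmb9 (0.61 and 0.57) and Psmb10 (0.73 and 0.67), the guanylate-binding protein Gbp2 (0.90 and 0.84) and the myeloid transcription factor Irf8 (0.78 and 0.74). None of 8 MHC class II genes passed, at a median of 0.37 with all 10 arrays and 0.35 without the array with zeros. Of 11 T and NK cell genes 3 were called with all arrays and none without the array with zeros. The plasma cell protein Jchain, which joins IgA and IgM, differed by 1.46 and 1.65, and its Rapa minus vehicle difference was -1.12. Another probe set of Jchain (0.28) did not pass. A fit to the 10 arrays alone did not call Cxcl12 and Jchain (adjusted p = 0.056 to 0.17). The adjusted p rose without CsA replicate 4 to 0.16 for Cxcl12 and 0.052 for Psmb9; without Rapa replicate 4 to 0.052 for Cxcl12.

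Genes of the unfolded protein response and of amino acid stress that passed were higher with CsA, apart from Dnajc10, a disulfide reductase (-0.40 and -0.38). Of 50 members 19 were called higher and 1 lower, with a median of 0.24 with all 10 arrays and 0.22 without the array with zeros. Among all tested genes 6.59% were called higher and 4.80% lower. Asns, asparagine synthetase, was at 8.17, 8.40 and 8.43, with 8.46 in the array with zeros, against 7.02 to 7.25 with a median of 7.20 with Rapa, and the groups did not overlap. The difference was 1.20 ± 0.17 (SE) with all 10 arrays and 1.17 ± 0.19 without the array with zeros (limma adjusted p = 1.3e-07 and 4.4e-06). Atf3, a stress-induced transcription factor, was at 7.15, 7.98 and 7.28, with 7.90 in the array with zeros, and at 5.24 to 6.28 with a median of 6.06 with Rapa, a difference of 1.63 ± 0.29 (SE) with all 10 arrays and 1.52 ± 0.32 without the array with zeros (limma adjusted p = 1.8e-05 and 0.00038). The amino acid transporter Slc7a5 differed by 0.87 and 0.76 and Psph of serine synthesis by 0.82 and 0.70. Chaperones of the endoplasmic reticulum differed as follows: Manf by 0.70 and 0.72, Hspa5, or BiP, by 0.47 and 0.46, Calr by 0.57 and 0.61, Pdia4 by 0.58 and 0.57 and Dnajb9 by 0.60 and 0.70. Fkbp11, an immunophilin of the same compartment, differed by 0.95 and 0.90. Cytosolic heat shock proteins went the other way, with 5 of 25 called lower and none higher, at a median of -0.14 and -0.17. Hspb6 differed by -1.0 and -1.03, Cryab, alpha-B crystallin, by -0.94 and -0.71, Hsph1 by -0.54 and -0.66 and Hspb1 by -0.55 and -0.61. Another probe set of Hsph1 (-0.39) did not pass. Of 28 immediate early genes 6 were called higher, among them Jun (0.98 and 0.98), Myc (1.24 and 1.22) and Klf6 (1.32 and 1.27), at a list median of 0.30 and 0.32. With the 10 arrays fitted alone, Hspb1 and Hsph1 were not called (adjusted p = 0.23 to 0.24). The adjusted p rose without CsA replicate 1 to 0.056 for Hspb1; without CsA replicate 4 to 0.14 for Hsph1; without Rapa replicate 3 to 0.085 for Hspb1.

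The transcription factor ATF4 is known to act on amino acid stress genes through the C/EBP-ATF response element. Its core TGATGNAA was searched on both strands in the RefSeq promoter table (build GRCr8), 250 bases before to 50 after each gene's start. It was present in 1048 of 27457 promoters (3.82%), in 7 of the 47 members of the stress list that have an entry, and in 1 of the 16 called higher that have an entry. That gene was Nars1, the asparaginyl-tRNA synthetase, with a difference of 0.35 and 0.32. Herpud1, an endoplasmic reticulum protein with the motif, did not pass (-0.17 and -0.16), nor did Nupr1, a stress-induced chromatin protein with the motif (0.76 and 0.82). The windows of 28 bases around these matches are shown on each gene's strand to set the called member beside those not called, at chr18:60275779-60275806 (minus strand), chr19:10614874-10614901 (minus strand) and chr1:190645939-190645966 (minus strand). Capitals mark the match, which reads in reverse complement in Herpud1 and Nupr1. A match is a description of these letters, not a measured site.
Nars1: ctaggtgatcTGATGCAAcgcttcagtc
Herpud1: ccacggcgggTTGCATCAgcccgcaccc
Nupr1: aaaggccagaTTGCATCAgacagggctt

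The fibrillar collagens Col1a1 and Col3a1 were higher with CsA than with Rapa, near vehicle with CsA and below it with Rapa. Of 37 matrix genes 8 were called higher and 3 lower, with a median of 0.30 with all 10 arrays and 0.25 without the array with zeros. Among all tested genes 6.59% were called higher and 4.80% lower. Col1a1, the main chain of type I collagen, was at 8.27, 8.06 and 8.74, with 8.61 in the array with zeros, against 6.91 to 7.47 with a median of 6.97 with Rapa and 8.40, 8.18, 7.95, 8.23 and 8.95 in the vehicle rats. The CsA rats lay in the vehicle range, and the highest Rapa rat lay below both. The difference was 1.33 ± 0.27 (SE) with all 10 arrays and 1.27 ± 0.30 without the array with zeros (limma adjusted p = 0.00012 and 0.0013). Col3a1 differed by 1.03 and 1.03, with -0.80 for Rapa against vehicle, and Col1a2 by 0.91 and 0.83. Fn1, fibronectin, differed by 1.06 and 1.11 and S100a4, a calcium-binding protein of fibroblasts and leukocytes, by 1.60 and 1.78, and against vehicle these were 0.96 and 1.64 with CsA and -0.15 and -0.14 with Rapa. Ccn2, the matricellular growth factor CTGF (-0.94 and -0.97), the collagen cross-linking enzyme Lox (-0.85 and -0.95) and matrix Gla protein, Mgp (-0.53 and -0.60), were lower. In the TGF-beta pathway 3 of 33 members were higher and 2 lower, where 11.4% of all tested genes were called in either direction. Tgfb1 (0.72 and 0.73), the corepressor Tgif1 (1.18 and 1.19) and the activin subunit Inhbb (1.20 and 1.24) were higher. Bmp4 (-0.60 and -0.67) and the latent TGF-beta binding protein Ltbp3 (-0.42 and -0.50) were lower, at a list median of -0.03 and -0.07. Inhbb was not called in a fit to the 10 arrays alone (adjusted p = 0.12).

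In a further set of genes the Rapa mean lay farther from vehicle than the CsA mean. The rule for these took called genes without overlap whose Rapa mean differed from vehicle and lay more than 2 times as far from the vehicle mean as the CsA mean did, so their position against vehicle is how they were chosen. Mmp9, a gelatinase, was at 7.30, 7.47 and 7.04, with 7.33 in the array with zeros, against 4.54 to 5.99 with a median of 5.45 with Rapa and 6.69, 8.28, 7.58, 6.35 and 5.92 with vehicle. No Rapa rat reached a CsA rat, and the lowest Rapa values are near 4, the value of an intensity of 0, where the scale compresses differences. The difference was 1.99 ± 0.39 (SE) with all 10 arrays and 1.97 ± 0.43 without the array with zeros (limma adjusted p = 7.5e-05 and 0.00055). Ptgds, which makes prostaglandin D2, was at 8.46, 9.03 and 8.90, with 9.50 in the array with zeros, against 6.86 to 7.69 with a median of 7.20 with Rapa and 9.92, 10.14, 9.48, 10.10 and 9.50 with vehicle. Both drugs lay below vehicle, with a Rapa difference of -2.58 and a CsA difference of -1.03 without the array with zeros. Dpp7, a lysosomal dipeptidase, differed by 1.34 and 1.24, Slc51a, a subunit of an organic solute transporter, by 1.38 and 1.20, and Cks2, a partner of cyclin-dependent kinases, by 1.12 and 1.15. On the other side, Cdo1, the cysteine dioxygenase of taurine synthesis, was at 11.31, 11.04 and 11.29, with 10.99 in the array with zeros, and at 11.96 to 12.63 with a median of 12.29 with Rapa, a difference of -1.10 ± 0.18 (SE) with all 10 arrays and -1.04 ± 0.19 without the array with zeros (limma adjusted p = 1.8e-06 and 4.8e-05). Fmo2, a flavin monooxygenase, differed by -1.07 and -1.12, Igfbp3, an IGF carrier, by -0.92 and -0.85, the GTPase Rem1 by -0.77 and -0.87 and Rdm1 by -0.68 and -0.69. All of these were above vehicle with Rapa, Cdo1 by 0.78 and Fmo2 by 0.82. Another probe set of Rem1 (-0.66) did not pass.

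**Figure D3:**
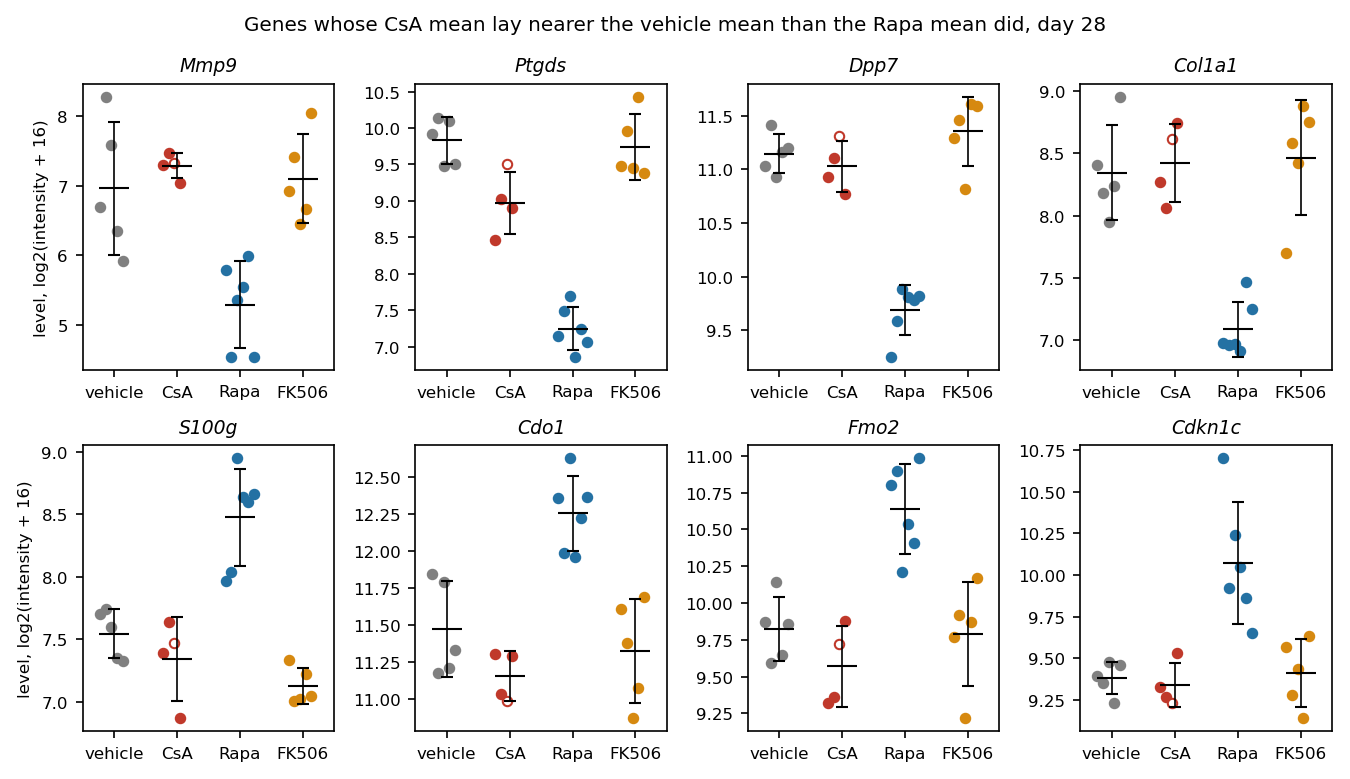
Level of 8 genes in each rat after 28 daily doses, as log2(intensity + 16), in the groups and symbols of the plot of 12 genes: vehicle, CsA 25 mg/kg (open circle, the array with zeros), Rapa 10 mg/kg and FK506 6 mg/kg, with means and SD. Mmp9, Ptgds, Dpp7 and Col1a1 are lowest with Rapa, and S100g, Cdo1, Fmo2 and Cdkn1c are highest with Rapa.

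Over all tested genes 11.4% were called in both fits. Of 18 calcineurin and NFAT genes 1 was called, at a median of -0.06 and -0.06, the catalytic subunit Ppp3cb (-0.28 and -0.32). Another of its probe sets had the opposite sign and did not pass. Rcan1, an NFAT target and inhibitor of calcineurin, differed by 0.11 and 0.02 (adjusted p = 0.72 and 0.97). Of 39 genes of the mTOR complexes and their regulators 1 was higher, the adaptor Grb10 (0.54 and 0.47), and 1 lower, the GTPase Rheb (-0.30 and -0.36), at a median of -0.02 and -0.02. For both genes other probe sets had the opposite sign and did not pass. Mtor, the kinase itself, was not called with all 10 arrays and was lower without the array with zeros (-0.27, limma adjusted p = 0.0042). The fit without that array called 4 members of the mTOR list lower, and the fit with all 10 arrays 1. Fkbp1a, which encodes FKBP12, had differences of 0.20 and 0.18 (adjusted p = 0.10 and 0.24), and Fkbp5, its glucocorticoid-induced relative, of -0.72 and -0.68 (adjusted p = 0.18 and 0.31). With all 10 arrays another probe set of each was called in the same direction, at 0.40 and -1.19. Ddit4, an inhibitor of mTOR complex 1, had 0.14 and 0.30 (adjusted p = 0.85 and 0.70). Of 24 immunophilin genes 3 were higher and 1 lower, at a median of 0.06 and 0.01: beside Fkbp11 these were Fkbp2 (0.34 and 0.38), the cyclophilin Ppib (0.16 and 0.18) and, downward, the cyclophilin Ppic (-0.47 and -0.46). For Fkbp2 1 other probe set had the opposite sign and did not pass, at -0.14. A fit to the 10 arrays alone did not call Fkbp2, Ppib, Ppic, Ppp3cb and Rheb (adjusted p = 0.10 to 0.30). The adjusted p rose without CsA replicate 4 to 0.33 for Ppib and 0.094 for Ppp3cb; without Rapa replicate 2 to 0.086 for Ppib; without Rapa replicate 3 to 0.050 for Ppib.

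Genes of fatty acid oxidation and of the lysosome were mostly higher where they passed. Of all tested genes 6.59% were called higher and 4.80% lower between the drugs. Of 40 genes of fatty acid oxidation and PPAR-alpha 11 were called higher and 1 lower, with a median of 0.18 with all 10 arrays and 0.16 without the array with zeros. Angptl4, an inhibitor of lipoprotein lipase, differed by 1.17 and 1.24, the lipid droplet protein Plin2 by 0.86 and 0.81, the thioesterase Acot4 by 0.84 and 0.82 and the peroxisomal enzyme Ehhadh by 0.71 and 0.67. Against vehicle 20 of the 40 were lower with Rapa and 6 with CsA (without the array with zeros), where 8.16% and 7.78% of all genes were. Of 45 lysosome and autophagy genes 13 were higher and 3 lower, at a median of 0.13 and 0.13, among them acid ceramidase, Asah1 (0.57 and 0.64), cathepsin Z, Ctsz (0.69 and 0.58), and beta-galactosidase, Glb1 (0.49 and 0.49), upward, and the autophagy protein Gabarapl1 (-0.50 and -0.48) downward. Me1, malic enzyme, differed by 0.78 and 0.64 and Sqle, squalene epoxidase of cholesterol synthesis, by 0.97 and 0.91. In the cell cycle list 2 of 37 genes were called, where 11.4% of all tested genes were. These were Cks2 and Cks1b (0.76 and 0.75), both higher, at a list median of 0.34 and 0.23. Another probe set of Cks1b (0.25) did not pass. Gpx2, a glutathione peroxidase, differed by 1.54 and 1.45, and Slc34a2, a sodium phosphate cotransporter, by 1.48 and 1.58. With the 10 arrays fitted alone, Acot4, Angptl4, Ctsz and Me1 were not called (adjusted p = 0.052 to 0.093).

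**Figure D4:**
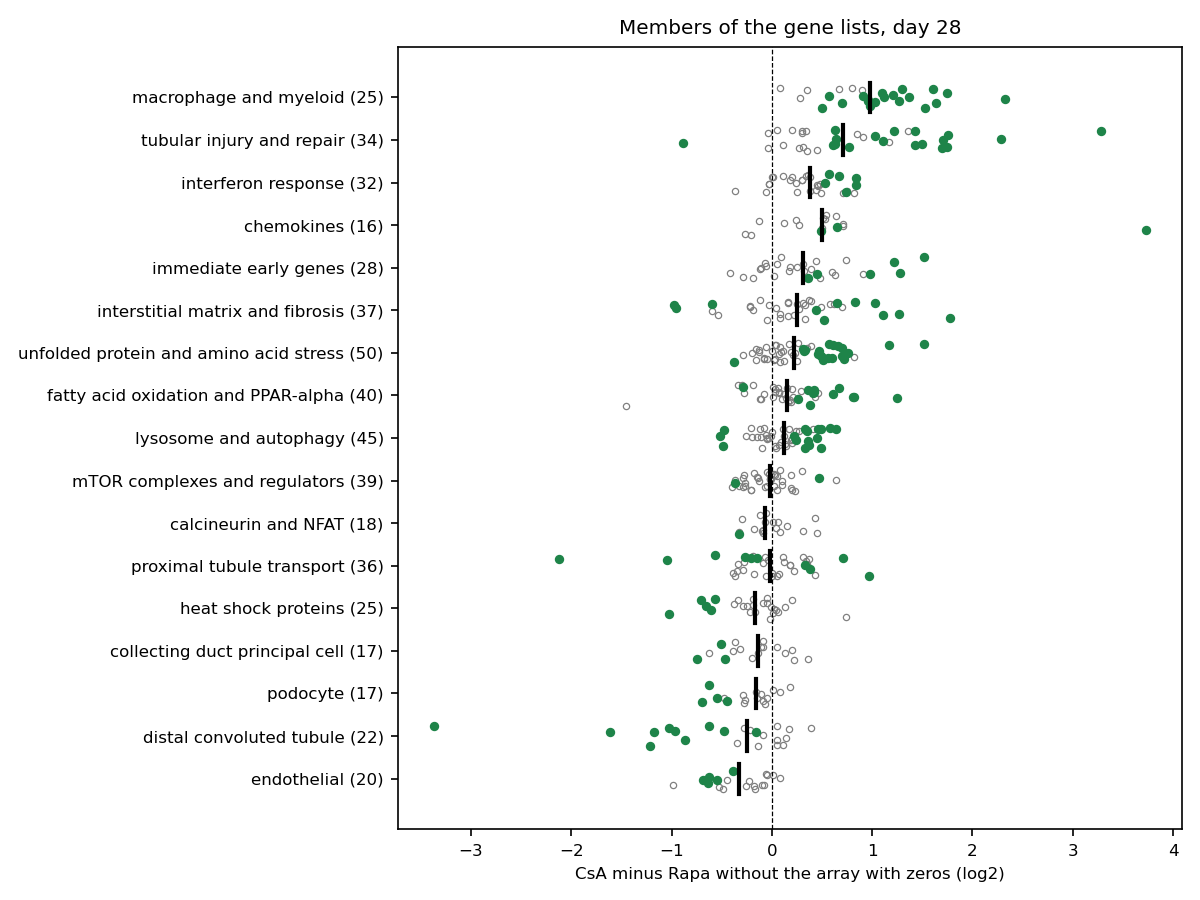
CsA minus Rapa difference at day 28 without the array with zeros (log2) for each tested member of 17 gene lists, with the number of members in parentheses. Filled points are called in both fits, open points are not, black bars are list medians and the dashed line is the median of all tested genes. Macrophage and tubular injury genes lie furthest right, at medians of 0.98 and 0.71, and endothelial genes furthest left at -0.32.

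Several of the named genes need a caution on identity. Klk1c4, the second largest rise (2.45 and 2.54), and Klk1c9 (2.00 and 1.53) belong to the tissue kallikreins, a family of close copies that probe sets may not separate. Klk1 itself had 0.44 and 0.39 (adjusted p = 0.043 and 0.14). Eri2, an exoribonuclease family member, was listed at 0 in the array with zeros, differed by -3.05 and -1.89, and its other probe set had the opposite sign and did not pass. Apoh, a plasma protein made by the liver, differed by -1.41 and -1.43, and the liver gene Alb ranged from 5.17 to 10.02 across the Rapa rats and from 4.85 to 6.26 across the CsA rats; the part of liver RNA in the Apoh difference was not tested. The remaining falls among the 12 largest were Sfrp2, a secreted Wnt-binding protein (-1.16 and -1.20), Tex14, a protein of germ cell bridges (-1.12 and -1.26), and Cnpy1 (-1.08 and -1.12). The remaining rises were Naaa, a lysosomal amidase (1.74 and 1.77), Gpnmb, a glycoprotein of macrophages and injured epithelium (1.70 and 1.76), and Clec4a3, a C-type lectin of myeloid cells (1.69 and 1.71). Eri2 was not called in a fit to the 10 arrays alone (adjusted p = 0.072).

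The same doses were compared at day 7 and day 14 in other rats, which share no animal with day 28. At day 14, 852 genes (7.99%) were higher with CsA and 719 (6.74%) lower, and at day 7, 636 (5.97%) and 369 (3.46%). These calls rest on 1 fit with all arrays, which at day 28 called 1107 higher and 1009 lower. The day 28 genes below had to pass in both fits, so the call rules differ between the days. Without Rapa day 7 replicate 2 the day 7 total of 1005 was 646. Of the 703 genes higher at day 28, 359 were also higher at day 14, which is 51.1% of the day 28 and 42.1% of the day 14 genes, and 227 at day 7, 32.3% and 35.7%. Of the 512 lower genes 234 were lower at day 14 (45.7% and 32.5%) and 124 at day 7 (24.2% and 33.6%). Opposite calls among the 703 and 512 genes were 1 and 1 at day 14 and 5 and 2 at day 7. All 12 of the largest rises were called higher at day 14, and 7 at day 7. Of the 12 largest falls 9 were called lower at each day. Myeloid genes were higher from day 7 on, with 20 of 25 called at day 7 (median 1.15) and 20 at day 14 (median 1.46). Of the 22 distal convoluted tubule genes 8 were lower at day 7 and 11 at day 14, and Calb1 differed by -2.32 ± 0.25 (SE) and -2.48 ± 0.25. Tubular injury genes had 4 members higher and 2 lower at day 7, at a median of 0.04, and 18 higher at day 14, at a median of 0.66.

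The change of the difference from day 7 to day 28 was tested itself. With all arrays it was called for 117 genes (1.10%; 72 upward and 45 downward), and without the array with zeros for 63 (0.591%; 41 and 22). This count moved with single rats: without CsA day 28 replicate 1, 2 or 4 it was 495, 401 and 407, without CsA day 7 replicate 3 or 4 it was 54 and 76, and without Rapa day 7 replicate 2 it was 73. In the fits without CsA day 28 replicate 1, 2 or 4 the upward share was 28.3%, 28.2% and 27%, against 61.5% with all arrays. Adamts1 grew by 2.43 ± 0.43 (SE) with all arrays and 2.45 without the array with zeros (limma adjusted p = 0.00067 and 0.0018), Clu by 1.82 ± 0.41 (SE) with all arrays and 1.83 without the array with zeros (limma adjusted p = 0.0092 and 0.018) and Cldn4 by 1.88 ± 0.31 (SE) with all arrays and 1.83 without the array with zeros (limma adjusted p = 0.00024 and 0.0016). Timp1, Tnfrsf12a and Tgif1 were likewise called in both fits, at 1.34, 1.87 and 1.24 with all arrays, and for Egf the change was -0.63. When only the 4 groups involved were fitted, the change was called for 8 genes and for none of these 7 (adjusted p = 0.057 to 0.31). Havcr1 changed by 2.74 ± 0.74 (SE) with all arrays and 2.51 without the array with zeros (limma adjusted p = 0.041 and 0.093), so its call was lost without that array. For Fcgr3a, Adgre1, Mmp9 and Slc12a3 the change did not pass (adjusted p = 0.44, 0.85, 0.91 and 0.84), and for Calb1 it was -1.09 ± 0.33 (SE) with all arrays and -1.05 without the array with zeros (limma adjusted p = 0.074 and 0.14).

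**Figure D5:**
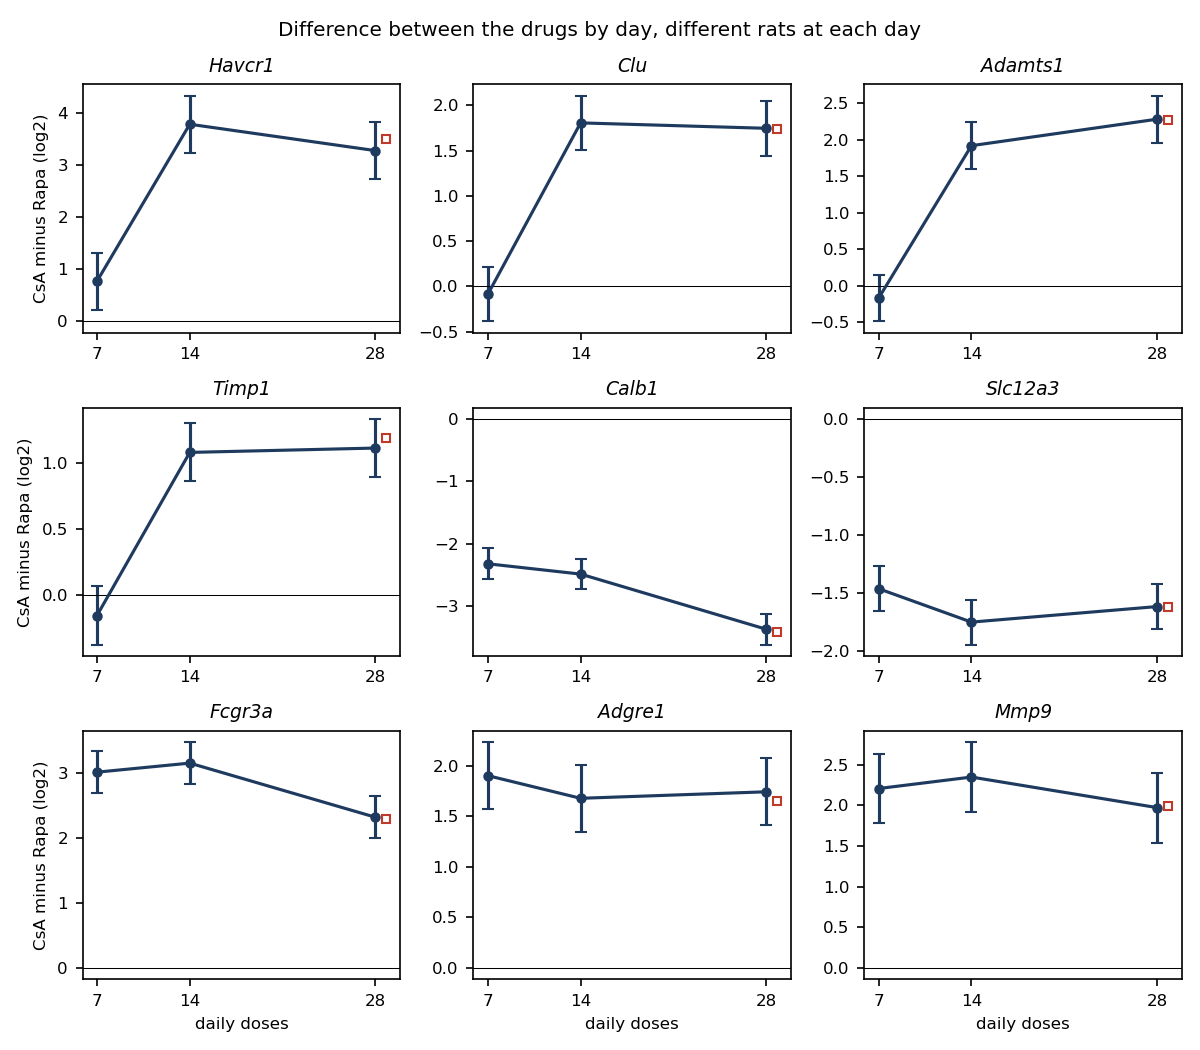
CsA minus Rapa difference (log2) for 9 genes after 7, 14 and 28 daily doses, with the model's SE; the day 28 point is without the array with zeros and the open square is the value with all 10 arrays. Different rats were used at each day. Havcr1, Clu, Adamts1 and Timp1 are near 0 or low at day 7 and high at day 14 and 28, while Fcgr3a, Adgre1, Mmp9, Calb1 and Slc12a3 differ at all 3 days.

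FK506 at 6 mg/kg, the other calcineurin inhibitor, was set beside CsA against the same 6 Rapa rats. The comparisons share these rats and the doses differ, so the values and counts are a description. Calb1 was at 8.76, 9.19, 9.01, 8.93 and 9.65 in the FK506 rats. Its differences from Rapa without and with the hybridization control level as a covariate were -3.06 and -3.11, an order kept for the next genes, since that covariate moved the count of calls from 1167 (10.9%) to 374. Slc12a3 differed from Rapa by -1.57 and -1.61 and Havcr1 by 2.74 and 2.01. Havcr1 varied widely among the FK506 rats, with an SD of 1.44 (n = 5) around a mean of 9.68. For Fcgr3a the FK506 difference was 0.94 and 1.02, for Cxcl13 1.17 and 0.52 and for Asns 0.42 and 0.14. With CsA these were 2.32, 3.73 and 1.17 without the array with zeros. Without the covariate, 17 of 25 myeloid genes were called higher with FK506 than with Rapa and 0 lower, at a median of 0.71. Of 34 tubular injury genes 15 were higher and 0 lower (median 0.50). Of 32 interferon-response genes 12 were higher and 0 lower (median 0.62), and of the 50 stress genes 6 and 4 (median 0.06).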

How the data were processed

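The authors hybridized kidney RNA of single rats to Affymetrix Rat Genome 230 2.0 arrays, per the labels. The deposited values are linear intensities, 1 per probe set and array; how probes were summarised and scaled is not given in the sources used here. From them log2 values were computed, since the deposited table is not on a log2 scale: log2(intensity + 16), quantile normalized over the 120 arrays. Of 31099 probe sets, 20826 matched 1 gene symbol in GEO's platform annotation, 436 several and 9780 none. The probe set with the highest mean stood for each of 14217 genes, and the lowest 25% of genes by mean were left out. limma 3.58.1 in R 4.3.3 (Python 3.11.15 for the summaries) fitted 28 group means, so the 28 groups share 1 estimate of the spread. Its two-sided moderated test was adjusted by Benjamini-Hochberg over 10662 genes at 0.05. On data simulated for the day 28 comparison, the fit recovered 48 of 50 genes changed by 1 on the log2 scale. It recovered 31 of 50 changed by 0.5, and 7 of its 185 calls were false. The simulation drew normal noise at each gene's spread over all 28 groups, without an array with zeros, and fitted all arrays only. These rates are therefore not those of calls that need both fits. The number of arrays limits the precision.

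Groups came from the treatment labels, and each label names another rat. Named genes were the 12 largest rises and falls without overlap, up to 4 called members of each list, a set of kidney and drug target genes, and 8 rises and 8 falls with a Rapa mean farther from vehicle. Further list members, such as Cd44, Mdk, Hnf4a, Csf1r, the C1q chains, Hspa5, Col1a2, Ccn2, Cnnm2, Wnk1 and Nars1, were named after their values were seen. The comparison, the lists and the tests were chosen with earlier results of these data known. Alternatives changed the offset, filter, normalization, probe sets, arrays fitted, weights, trend and covariates, treated zeros as missing, or left out each CsA or Rapa rat in turn. The fit to the day 28 arrays without the array with zeros, and the alternatives for the vehicle and FK506 comparisons, were chosen after seeing the data.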

Additional observations from a re-analysis of the deposited data

Results flagged for a closer look

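For 18 of 332 gene and group pairs tested (5.42%) 1 rat lay far from the rest of its group, where chance gives about 1 in 20. Values are levels as log2(intensity + 16). In Rapa replicate 6 these were Cxcl13 at 9.76 (others 5.82 to 7.08), Fcgr3a at 8.79 (others 6.98 to 7.49), Lcn2 at 9.32 (others 7.02 to 7.58) and Slco1a1 at 10.85 (others 11.44 to 11.65). The first 3 of these are immune or injury genes that were high with CsA, and their values in this rat lay toward the CsA side. Slco1a1, a transporter gene that was lower with CsA, lay toward the CsA side in this rat too. In Rapa replicate 4 they were Clu at 10.16 (others 10.67 to 10.89), Klk1 at 11.32 (others up to 12.29) and Slc12a3 at 9.40 (others 9.69 to 9.83). Single genes were Ppic at 12.23 (others 11.57 to 11.80) in Rapa replicate 1, Ppp3cb at 8.90 (others 9.13 to 9.26) in replicate 2 and Rpl11 at 12.76 (others 12.61 to 12.67) in replicate 3. In CsA replicate 4 they were Cxcl12 at 11.67 (others 11.07 to 11.15), Kap at 11.69 (others 13.70 to 13.98), Pilra at 8.86 (others 7.86 to 7.97) and Vim at 11.28 (others 10.23 to 10.29), and in CsA replicate 1 Acss2 at 12.95 (others 12.49 to 12.53). In the CsA array with zeros they were Klk1c9 at 9.92 (others 8.01 to 8.08), Slc12a1 at 11.66 (others 12.38 to 12.45) and Tek at 4.34 (others 9.31 to 9.69).

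The CsA minus Rapa difference changed from day 7 to day 28 for 12 of the named genes (limma, adjusted p under 0.05 with all arrays). It grew upward by 2.43 for Adamts1, 1.88 for Cldn4, 1.82 for Clu, 2.74 for Havcr1, 1.73 for Inhbb, 0.54 for Sod2, 1.24 for Tgif1, 1.34 for Timp1 and 1.87 for Tnfrsf12a. Downward changes were -0.63 for Egf, -0.42 for Emcn and -1.79 for Tek. Without the array with zeros the adjusted p was 0.082 for Emcn, 0.093 for Havcr1, 0.052 for Inhbb and 0.084 for Tek, and the other 8 changes kept an adjusted p under 0.05. Kap (adjusted p = 0.11 and 0.035 with and without that array) and Slco1a1 (0.070 and 0.041) passed only without it. With only the 4 groups involved in the fit none of the 12 passed (adjusted p = 0.057 to 0.60).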

How the results depend on the processing

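No paired analysis was possible because the labels give each array a rat of its own and no number shared between groups. With the compared groups alone the count of called genes was 540 at day 28 (2116 with all 120 arrays), 1361 at day 14 (1571), 453 at day 7 (1005), 8 for the change from day 7 to day 28 (117), 878 for CsA against vehicle (2253) and 311 for FK506 against Rapa (1167). With the compared days alone it was 1382 at day 28 and 38 for the change. With the day 28 arrays alone and without the array with zeros, chosen after seeing the data, it was 977 against Rapa and 1357 against vehicle. With zeros as missing values the change was called for 72 genes, and the hybridization control covariate left 374 for FK506. Leaving out 1 CsA or Rapa rat, and no vehicle or FK506 rat, gave 1347 to 2058 at day 28, the lowest without the array with zeros, 1170 to 1384 at day 14, 646 to 909 at day 7, 54 to 495 for the change, 1682 to 2403 for CsA against vehicle, 1476 to 1647 for Rapa against vehicle and 974 to 1134 for FK506 against Rapa. The share of higher genes among the day 28 calls was 52.3%, 35.2% with zeros as missing values and 69.6% with the groups alone. Of 147 named genes called with all arrays, 84 kept the call in all 22 alternatives, and 0 of them changed direction. The groups alone ended 57 calls, the day 28 arrays without the array with zeros 24 and the fit that left out CsA replicate 4 ended 22. Among the 24 were Alas2, Bhlhe41, Cldn7, Cryab, Ctsz, Gbp2, Gdf15, Kcnj1, Lcn2, Mcam, Mme, Ppib, Psmb9, Ptgs2, Scnn1g and Slc26a4. The cause of these moves was not tested. Array intensities near the floor limit dim genes such as Mmp9 and Ptgs2.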

Other observations

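Most ribosomal protein genes measured were called higher than vehicle with each drug. Of 39 measured genes 33 were called and higher than vehicle with CsA (without the array with zeros, median 0.33) and 33 with Rapa (median 0.23), and none was lower in either comparison. Both comparisons use the same 5 vehicle rats. Of all 10662 genes tested, 853 were called higher than vehicle with CsA (without the array with zeros) and 808 with Rapa. In either direction the shares were 15.8% with CsA and 15.7% with Rapa. Between the drugs 6 were called higher with CsA, among them Rpl11 (0.21 and 0.26) and Rpl14 (0.21 and 0.27), at a median of 0.07 and 0.09. Of 71 genes of the mitochondrial respiratory chain 18 with CsA (without the array with zeros) and 24 with Rapa were called lower than vehicle, where 7.78% and 8.16% of all genes were. The list medians were -0.09 and -0.11, and 1 and 2 genes were called higher. Between the drugs 4 respiratory chain genes were called, all higher with CsA, such as Ndufa6 (0.27 and 0.27). Of all tested genes 6.59% were called higher and 4.80% lower between the drugs. The fit without the array with zeros called 3 respiratory chain genes lower, and the fit with all 10 arrays 0.

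Between the drugs 11.4% of all genes tested were called in both fits. Among 20 genes of vitamin D and phosphate handling 2 were higher and 2 lower, at a median of 0.00 and 0.03. Of these Gc, the vitamin D carrier of plasma, had differences of -1.13 and -1.44 and the FGF receptor Fgfr4 -0.41 and -0.53. Another probe set of Gc (-0.55) did not pass. In the oxidative stress list of 34 genes, Sod2, the mitochondrial superoxide dismutase, was higher (0.45 and 0.43) and Gclc of glutathione synthesis lower (-0.29 and -0.35), at a list median of 0.03 and 0.03. Smooth muscle genes Mcam (-0.62 and -0.67) and Myl9 (-0.48 and -0.49) were lower, 2 of 17 in that list. Another probe set of Mcam (-0.38) did not pass. The clock gene Bhlhe41 differed by 0.84 and 0.83, the tight-junction gene Cldn7 by 0.78 and 0.72, and the stress hormone Gdf15 by 1.03 and 1.03. Alas2, the heme synthesis enzyme of erythroid cells, was lower with CsA than with Rapa (-0.88 and -0.91), and Rapa rats lay at 7.43 to 8.95 with a median of 8.01 against 6.41, 7.11, 6.80, 7.16 and 6.33 in vehicle rats. A fit to the 10 arrays alone did not call Alas2, Bhlhe41, Cldn7, Fgfr4, Gc, Gclc, Gdf15, Mcam, Myl9, Rpl11 and Rpl14 (adjusted p = 0.069 to 0.31). The adjusted p rose without CsA replicate 1 to 0.099 for Alas2 and 0.052 for Fgfr4; without CsA replicate 2 to 0.074 for Alas2, 0.20 for Fgfr4, 0.11 for Gc, 0.11 for Gdf15 and 0.15 for Mcam; without CsA replicate 4 to 0.14 for Fgfr4, 0.26 for Gc, 0.18 for Gclc, 0.053 for Rpl11 and 0.25 for Rpl14; without Rapa replicate 1 to 0.087 for Fgfr4; without Rapa replicate 2 to 0.085 for Fgfr4, 0.051 for Gc and 0.095 for Mcam; without Rapa replicate 3 to 0.053 for Alas2, 0.069 for Fgfr4 and 0.11 for Gc; without Rapa replicate 4 to 0.087 for Alas2 and 0.068 for Gc; without Rapa replicate 5 to 0.053 for Fgfr4 and 0.074 for Gc; without Rapa replicate 6 to 0.053 for Bhlhe41 and 0.068 for Mcam.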
